A study of Mus with 4 samples.

Results

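Epithelial cells can lose their lateral junctions and take on the shape and motility of mesenchymal cells, a change known as epithelial-mesenchymal transition. It is driven by zinc finger and helix-loop-helix repressors of the Snail, Twist and Zeb families, which bind E-box elements in the promoters of epithelial genes such as Cdh1, and it is commonly followed by the loss of E-cadherin and the gain of N-cadherin, α-smooth muscle actin and S100a4. Podocytes, the cells that wrap the glomerular capillaries, are epithelial cells that carry vimentin and foot processes, and the acquisition of mesenchymal markers has been described in podocyte injury.

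The 10 genes described here are the 6 transcription factors Snai1, Snai2, Twist1, Twist2, Zeb1 and Zeb2 and the 4 markers Cdh1, Cdh2, Acta2 and S100a4. They were taken as a list of known genes, chosen with earlier results of these data known. Every probe carrying one of these gene symbols in the deposited array table was included. This gave 23 of 56605 probes, for 10 of 26893 genes. The gene annotation deposited with the array gives all 6 transcription factors a term for repression of RNA polymerase II transcription, and it gives Cdh1 and Cdh2 a term for adherens junctions.

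The samples were total RNA of an immortalised murine podocyte cell line that had been differentiated at 37 °C without interferon-γ for 10–14 days. In the OASIS group, 2 samples had received a lentivirus for the active, N-terminal form of OASIS, the transcription factor encoded by Creb3l1. In the Venus group, 2 samples had received a lentivirus for the fluorescent protein Venus and served as the control. In both groups the cells were kept with the vector and polybrene for 24 h, and RNA was extracted 48 h after the vector was given. The labels give no knockout, no animal age and no further agent for either group. Each sample was hybridised to its own array and read in 1 colour. Nothing in the labels states that samples of a group came from separate cultures, so the p-values measure the spread between these samples, which may be technical, and the group stands for a single cell line.

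All 4 arrays shared 1 slide and 1 scan. Between 33938 and 34418 of 59305 spots per array were well above background, and no spot was saturated. The log2 values correlated at r = 0.997 within the Venus group, at 0.995 within the OASIS group and at 0.973 to 0.978 between the groups. The Creb3l1 probe read 0.71 and 0.72 with Venus and 0.61 and 0.50 with OASIS, a log2 difference of -0.17 (SE 0.10, adjusted p = 0.298 by limma). The position of that probe relative to the fragment in the vector was not determined here, so it checks neither label. Values below are log2 intensities after each array's 75th percentile was set to 0, and differences are OASIS minus Venus on this log2 scale. A probe changed when limma gave a fold over 2.0 or under 0.5 and a Benjamini-Hochberg adjusted p under 0.1 over all 31598 probes tested. Probes enter that test when, in at least 1 group, both arrays have them well above background. With 2 arrays in each group, the smallest two-sided p of an exact permutation test would be 0.333.

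Among the 10 genes, only Snai1 passed the threshold, and it was 6.42-fold higher with OASIS. No tested probe of the other genes met both limits. Of the 23 probes, 14 were tested, which left 9 dim probes out and covered every gene but Cdh1. The count of 1 of 14 tested probes higher stands beside 5.89% of all tested probes that passed the threshold upwards, and the count of 0 lower by limma beside 2.47% downwards. At an unadjusted p under 0.05 and any fold, 2 were higher and 5 lower by limma, beside 18.3% and 22.4% of all tested probes. The methods' t-test gave 2 higher and 4 lower, and the share of all probes by that test is not given here. By the adjusted p of limma alone, without the 2-fold limit, 2 of the 14 probes were higher, beside 17% of all tested probes. By the same measure 4 of the 14 were lower, beside 19.7%. The median log2 difference of the 14 probes was -0.11, against -0.07 for all tested probes.

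**Figure D1:**
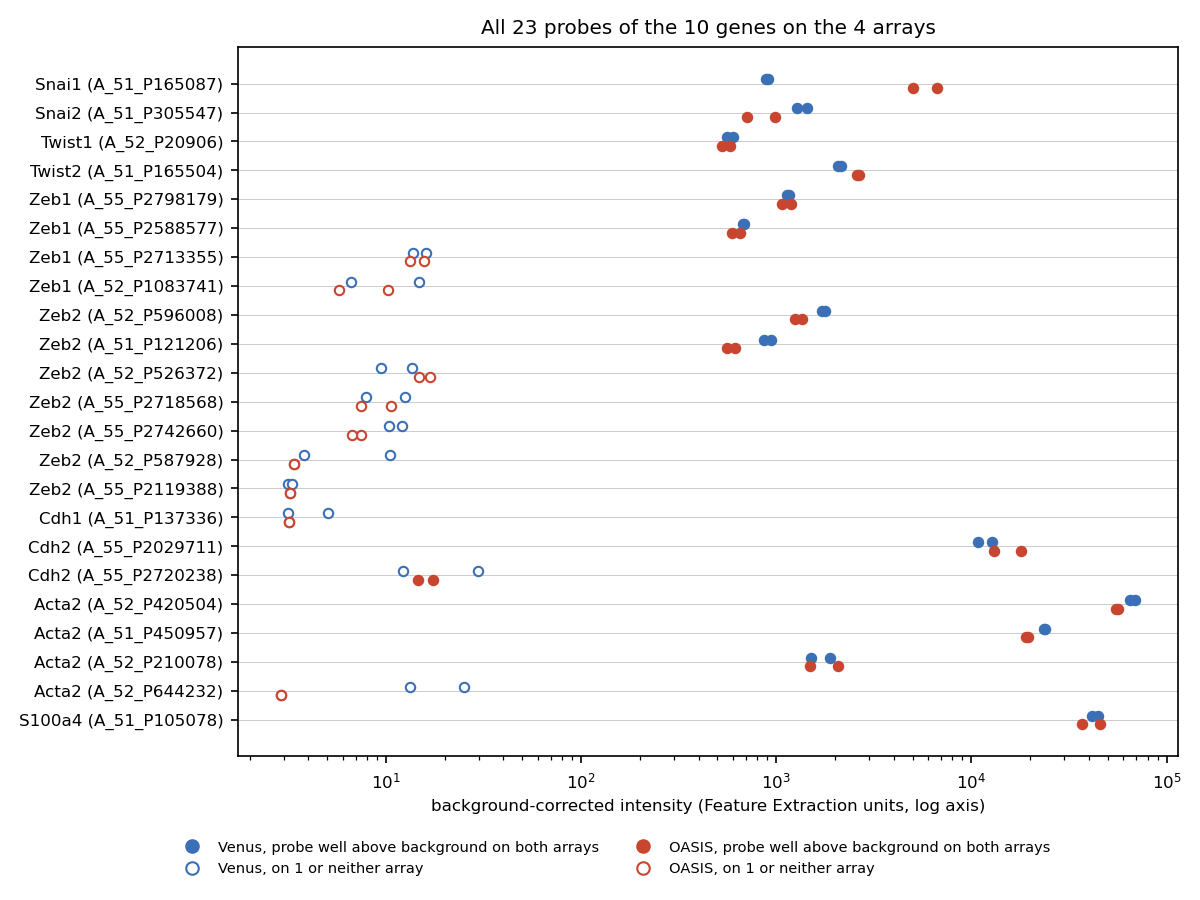
Background-corrected intensity (log axis, Feature Extraction units) of all 23 probes of the 10 genes, with 1 point per array, Venus in blue and OASIS in red; filled points mark a probe well above background on both arrays of that group. The Snai1 probe stands between 886 and 912 with Venus and between 5051 and 6677 with OASIS, while the Cdh1 probe stays at 3.15 to 5.05 on all 4 arrays.

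Snai1 and Snai2 encode the zinc finger repressors Snail and Slug, which recognise the same E-box core. Snai1 (probe A_51_P165087, chromosome 2 qH3) read -0.06 and -0.11 with Venus and 2.81 and 2.38 with OASIS. The OASIS arrays both lay above the Venus arrays, the nearest values 2.45 apart, whereas arrays of the same group differed by at most 0.42. The fitted log2 difference was 2.68 (SE 0.17, 95% confidence interval 2.24 to 3.13), with an adjusted p of 0.00378 by limma. Of the 31598 probes tested, 326 (1.03%) had a higher difference. Leaving out each array in turn gave 2.47 to 2.89.

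Snai2 (probe A_51_P305547, chromosome 16 qA1) had the opposite sign. Its values were 0.46 and 0.55 with Venus and -0.42 and 0.03 with OASIS. The OASIS arrays lay below the Venus arrays, but the gap between the groups, 0.43, was no wider than the 0.45 between the OASIS arrays themselves. The log2 difference was -0.70 (SE 0.18, 95% confidence interval -1.18 to -0.23, adjusted p = 0.0535 by limma), a Venus level 1.63 times that with OASIS, and Snai2 therefore met the limit on p but not the 2-fold limit. Without Venus replicate 1 its adjusted p by limma was 0.174, and without Venus replicate 2 it was 0.203.

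Twist1 and Twist2 encode basic helix-loop-helix factors that are prominent in mesoderm and skeletal development. Twist1 (probe A_52_P20906, chromosome 12 qA3) read -0.73 and -0.72 with Venus and -0.85 and -0.73 with OASIS. The groups were nearly touching, 0.003 apart at their nearest, and the log2 difference was -0.07 (SE 0.10, 95% confidence interval -0.34 to 0.21, adjusted p = 0.676 by limma). Twist2 (probe A_51_P165504, chromosome 1 qD) read 1.17 and 1.12 with Venus and 1.45 and 1.45 with OASIS. These OASIS values were close to each other and both above the Venus values. The difference was small, 0.30 (SE 0.10, 95% confidence interval 0.04 to 0.56), and its adjusted p by limma was 0.0885, which rose to between 0.151 and 0.392 when any 1 array was left out.

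Zeb1 and Zeb2 encode large zinc finger and homeodomain repressors, and both are themselves held down by the miR-200 family in epithelial cells. Zeb1 (chromosome 18 qA1) has 4 probes, of which 2 were tested. The probe A_55_P2798179 read 0.29 and 0.23 with Venus and 0.16 and 0.30 with OASIS, and its groups overlapped. Its log2 difference was -0.03 (95% confidence interval -0.32 to 0.26, adjusted p = 0.869 by limma), with a sign that turned under normexp background correction (0.01) and without OASIS replicate 1 (0.04). The second, A_55_P2588577, is annotated to the same transcript. It read -0.46 and -0.53 with Venus and -0.56 and -0.70 with OASIS, a difference of -0.13 (95% confidence interval -0.42 to 0.16, adjusted p = 0.415 by limma). The remaining probes, A_55_P2713355 and A_52_P1083741, were well above background on no more than 1 array.

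Zeb2 (chromosome 2 qB) has 7 probes, and the 2 tested ones, annotated to the same transcript, both read lower with OASIS, short of the 2-fold limit. A_52_P596008 read 0.95 and 0.80 with Venus and 0.38 and 0.48 with OASIS, a log2 difference of -0.44 (SE 0.11, 95% confidence interval -0.74 to -0.14, adjusted p = 0.0536 by limma). A_51_P121206 read 0.02 and -0.20 with Venus and -0.64 and -0.79 with OASIS, a log2 difference of -0.63 (SE 0.13, 95% confidence interval -0.97 to -0.29, adjusted p = 0.0333 by limma). In each probe the OASIS arrays lay below both Venus arrays, with gaps of 0.32 and 0.45. Without Venus replicate 1 the adjusted p by limma was 0.305 for the first probe and 0.195 for the second, without Venus replicate 2 it was 0.182 and 0.106, and without OASIS replicate 1 it was 0.131 for the first. The other 5 Zeb2 probes, 4 of which were at background on all arrays, were not tested: A_52_P526372, the exception, was well above background on 1 OASIS array.

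**Figure D2:**
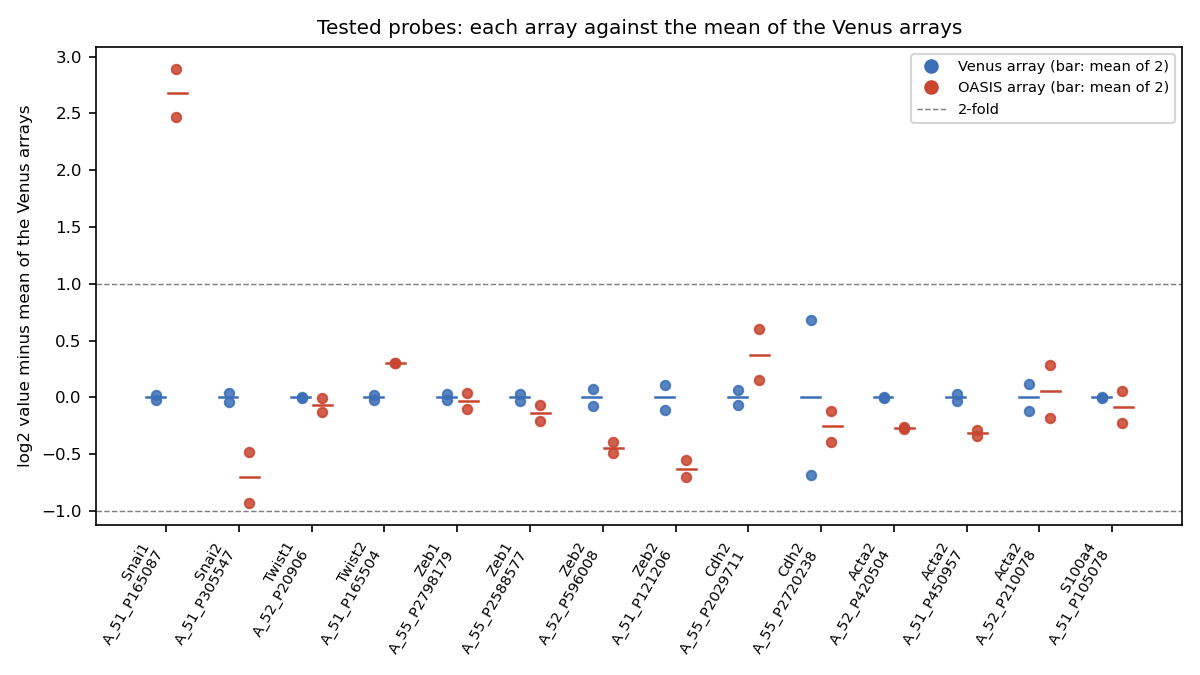
Log2 value of each array minus the mean of the Venus arrays for the 14 tested probes (vertical axis), with Venus arrays in blue, OASIS arrays in red, bars for the mean of the 2 arrays of a group and dashed lines at 2-fold. The OASIS points of Snai1 lie above the upper dashed line and all other points lie between the dashed lines, with Snai2 and both Zeb2 probes below the Venus arrays and Twist2 above them.

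Cdh1 encodes E-cadherin, the adhesion molecule of epithelial junctions and the best known target of the Snail and Zeb repressors. Its only probe, A_51_P137336 (chromosome 8 qD3), was not well above background on any array. The background-corrected intensities were 3.15 and 5.05 with Venus and 3.17 and 3.18 with OASIS. By this probe the cell line gave no measurable Cdh1 signal in either group, and neither a fall nor a rise could be read from it.

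Cdh2 encodes N-cadherin, the cadherin that typically replaces E-cadherin in mesenchymal cells. The probe detected in both groups (A_55_P2029711, chromosome 18 qA1) read 3.55 and 3.69 with Venus and 3.77 and 4.22 with OASIS. The OASIS arrays were above the Venus arrays by as little as 0.08, while the OASIS arrays differed from each other by 0.45. The log2 difference of 0.38 (SE 0.18, 95% confidence interval -0.10 to 0.86, adjusted p = 0.194 by limma) did not pass. Without OASIS replicate 1 it was 0.60 and without OASIS replicate 2 it was 0.15. A dim probe, A_55_P2720238, entered the test only through the OASIS arrays and read -4.97 and -6.34 with Venus and -5.77 and -6.04 with OASIS, with overlapping groups and a 95% confidence interval from -1.49 to 0.98. Without Venus replicate 1 the sign of that difference turned, from -0.25 to 0.43, and without Venus replicate 2 it was -0.94.

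Acta2 encodes α-smooth muscle actin, the usual marker of myofibroblasts. It has 4 probes (chromosome 19 qC1), of which 3 were tested, all annotated to the same transcript. A_52_P420504 read 6.12 and 6.13 with Venus and 5.85 and 5.87 with OASIS, a log2 difference of -0.27 (SE 0.10, 95% confidence interval -0.53 to -0.01, adjusted p = 0.111 by limma). A_51_P450957 read 4.67 and 4.60 with Venus and 4.35 and 4.29 with OASIS, a log2 difference of -0.32 (SE 0.10, 95% confidence interval -0.58 to -0.05, adjusted p = 0.0867 by limma, and 0.133 to 0.413 when any 1 array was left out). In these probes both OASIS arrays were lower by at least 0.25, and the intervals leave out a 2-fold change in either direction.

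The third tested Acta2 probe, A_52_P210078, did not separate the groups, with 0.70 and 0.94 for Venus and 0.64 and 1.10 for OASIS. Its log2 difference was 0.05 (SE 0.20, 95% confidence interval -0.47 to 0.57, adjusted p = 0.866 by limma), and the sign turned to -0.07 without Venus replicate 1 and to -0.18 without OASIS replicate 2. The fourth, A_52_P644232, is annotated to a separate cDNA clone. It had intensities of 25.2 and 13.3 with Venus and 2.92 and 2.89 with OASIS and was well above background on a single array, Venus replicate 1, so that it was not tested.

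S100a4 encodes a calcium-binding protein also called fibroblast-specific protein. Its probe A_51_P105078 (chromosome 3 qF1) read 5.49 and 5.50 with Venus and 5.27 and 5.55 with OASIS. The Venus values lay between the OASIS values. The log2 difference was -0.09 (SE 0.13, 95% confidence interval -0.44 to 0.27, adjusted p = 0.671 by limma), and it was 0.05 without OASIS replicate 1.

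Of the 14 tested probes, the OASIS arrays lay above both Venus arrays in 3, beside 28.6% of all tested probes, and below both in 7, beside 39.4%, and the groups overlapped in 4. The 95% confidence interval lay inside a 2-fold change in either direction for 11 probes. The exceptions were Snai1, Snai2 and the dim Cdh2 probe. The share of all tested probes with such an interval is not given here, so the count of 11 only describes these probes.

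**Figure D3:**
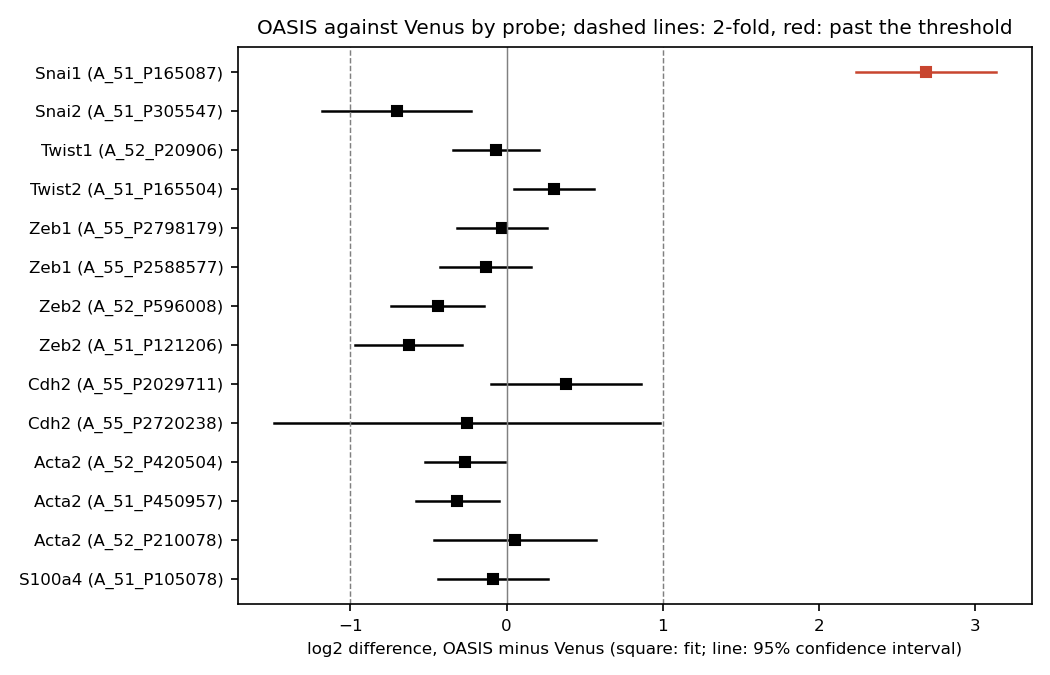
Fitted log2 difference, OASIS minus Venus (squares), with its 95% confidence interval (lines) for the 14 tested probes; dashed lines mark 2-fold and red marks the probe past the threshold. The interval of Snai1, 2.24 to 3.13, lies wholly beyond 2-fold, that of Snai2 reaches -1.18, that of the dim Cdh2 probe reaches -1.49, and the other 11 lie inside the dashed lines.

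**Figure D4:**
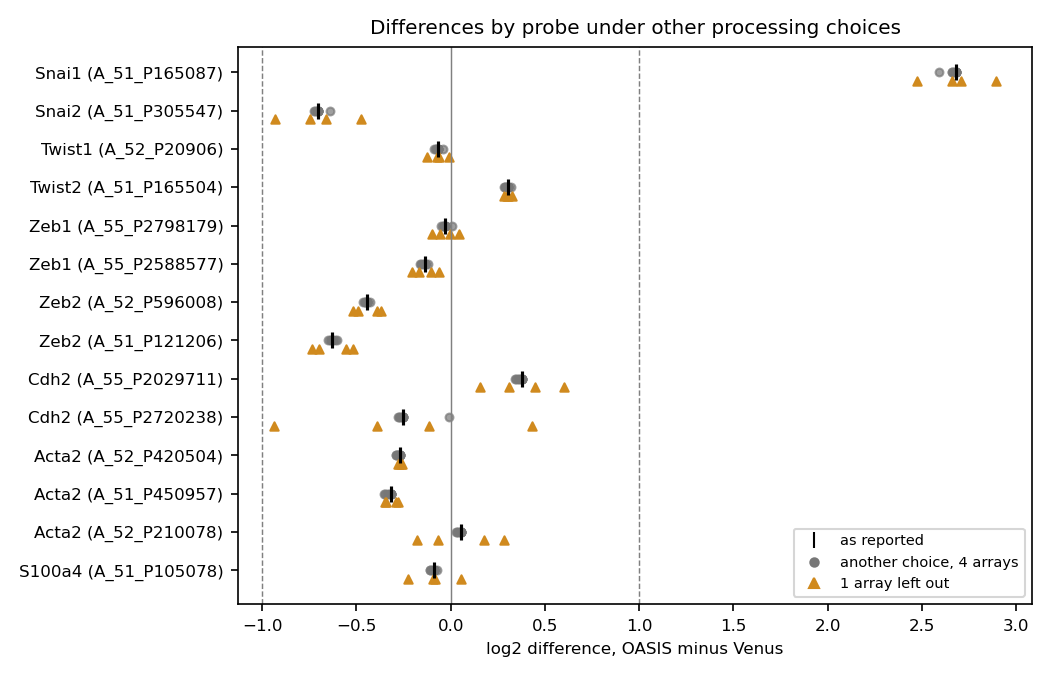
Log2 difference, OASIS minus Venus, of each tested probe as reported (black bar), under other processing choices with all 4 arrays (grey points) and with 1 array left out (orange triangles). Snai1 ranges from 2.47 to 2.89 and stays beyond 2-fold, while the Zeb1 probe A_55_P2798179, the Acta2 probe A_52_P210078, the dim Cdh2 probe and S100a4 have values on both sides of 0.

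Genes that act with or beside these factors were followed in 7 lists, in which a gene is represented by its brightest probe. Over the lists 157 genes were tested, and 11 were higher and 5 lower. Over all 16318 genes tested, 6.21% were higher and 1.85% lower, and the median log2 difference was -0.06. Of these 16 list genes, 6 lost the call when 1 array was left out, namely Cgn, Cnn3, Col5a1, Prkd1, S100pbp and Cdh9. By the methods' t-test 11 of the 16 did not pass, and under normexp background correction 7 did not. A further 10 genes did not pass by their brightest probe but had another probe that did: Tcf4, Crb3, Spint1, Ctnna2, Mdm2, Lats2 and Ctdsp2 with a lower probe, Btrc and Fbn1 with a higher one, and Gsk3b with one of each. At an unadjusted p under 0.05 by limma, 20% of all genes were higher and 20.9% lower, and the shares by the methods' t-test are not given here. The lists give counts and medians beside those of all genes, and they were not tested as sets.

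Of the other transition factors and their partners, 18 of 25 genes were tested, and by its brightest probe none was past the threshold by limma in either direction, with a median of -0.10. At an unadjusted p under 0.05, 4 were higher and 3 lower by limma and 2 and 2 by the methods' t-test. By the adjusted p alone, 3 read higher and 3 lower, a share near the 18.6% higher and 18.1% lower over all genes. Those higher were Sox9 (0.75, adjusted p = 0.0339 by limma), Id4 (0.66, adjusted p = 0.0312) and Id2 (0.61, adjusted p = 0.038), Id proteins being dominant-negative partners of helix-loop-helix factors. Those lower were Lef1, Tbx2 and Hmga2, with log2 differences of -0.74, -0.76 and -0.35. Snai3, the third Snail gene, was not well above background on any array, and Tcf3, which encodes the E proteins that pair with Twist factors, differed by -0.06 (adjusted p = 0.774 by limma).

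Of the epithelial regulators and junction genes, 35 of 52 were tested, and 15 were well above background on no array. Ovol1, which encodes a zinc finger repressor that opposes the transition, was not well above background with Venus and was at least 3.04-fold higher with OASIS. Its fitted difference was 3.24 (adjusted p = 0.0206 by limma and 0.179 by the methods' t-test). Under normexp the difference was 0.71, short of the 2-fold limit and smaller than that bound. Pkp1, a desmosomal plakophilin, rose by 1.77 (SE 0.24, adjusted p = 0.0131; 0.83 under normexp), while Cgn, the tight junction protein cingulin, fell by 1.04 (SE 0.26, adjusted p = 0.0492). Without OASIS replicate 1 the difference of Cgn was -0.68, and its adjusted p was 0.168 without Venus replicate 1 and 0.147 without Venus replicate 2. The median of the list was -0.11.

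Snai1 repression is carried out with corepressors and histone modifiers, and Snail protein is short-lived through kinases and F-box ubiquitin ligases. Of 30 such genes on the array 29 were tested. Lox, which encodes the collagen crosslinking enzyme lysyl oxidase and whose relatives Loxl2 and Loxl3 interact with Snail, rose from 0.11 and 0.62 with Venus to 4.39 and 4.29 with OASIS, a log2 difference of 3.98 (SE 0.20, adjusted p = 0.00262 by limma). Fbxo45, an F-box protein, rose by 1.29 (SE 0.15, adjusted p = 0.00993; 0.88 under normexp), and Prkd1, a protein kinase that phosphorylates Snail, fell by 1.04 (SE 0.24, adjusted p = 0.0425), with an adjusted p of 0.125 without Venus replicate 1 and 0.135 without OASIS replicate 1, and a difference of -0.43 under normexp. The other 26 tested genes did not pass by their brightest probe, and the median was -0.18. In 5 of these 26, another probe did pass the threshold. The probes of Gsk3b ran from -1.06 to 1.05 and those of Btrc up to 2.06. Those of Mdm2, Lats2 and Ctdsp2 ran down to -1.05, -1.30 and -1.84. Other genes of the list had probes of both signs with none past the threshold, among them Csnk1a1 (-0.43 to 0.84).

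Among other classical cadherins and catenins 14 of 25 genes were tested, and 0 were higher by limma, with 2 higher at an unadjusted p under 0.05 and 0 by the methods' t-test. Cdh9, at a fitted -1.24 (adjusted p = 0.0926 by limma, and -0.17 under normexp), was the only one lower. It was not well above background with OASIS, so that without normexp only a fall of at least 1.25-fold can be stated. Its adjusted p was 0.110 without OASIS replicate 2, 0.270 without Venus replicate 1 and 0.174 without Venus replicate 2. Cdh3, the P-cadherin gene of podocytes, differed by -0.31 (adjusted p = 0.104), and Cdh4 was not well above background on any array. By their brightest probes Cdh6 and Cdh11 read -0.97 and -0.60 and Cdh12 read 0.98, each short of the 2-fold limit. The 4 tested Cdh6 probes ranged from -0.97 to 0.33. The list median was -0.30, against -0.06 over all genes.

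Of the contractile smooth muscle genes that accompany Acta2 in myofibroblasts, 24 of 26 were tested. Cnn3, which encodes a non-muscle calponin, rose by 1.01 (SE 0.10, adjusted p = 0.00797 by limma) by its brighter probe and read 0.13 by the other. Its difference fell just short of 2-fold without OASIS replicate 2 (0.99) and without Venus replicate 1 (0.97), and also after scaling to the median (0.99). Tagln, encoding transgelin, differed by -0.11 (adjusted p = 0.495) and Tagln2 by -0.13 (adjusted p = 0.414), and the list median was -0.14.

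The mesenchymal surface and matrix markers held more genes past the threshold than any other list, with 5 of 27 tested genes higher and 1 lower. Over all genes tested 6.21% were higher and 1.85% lower. The lists were chosen with earlier results of these data known, so the order of the lists is a description only. The type I collagen genes Col1a1 and Col1a2 rose by 6.08 (SE 0.16) and 2.71 (SE 0.11, and 1.41 under normexp). Loxl2, which encodes a lysyl oxidase that also interacts with Snail, rose by 1.70 (SE 0.23, with another probe at 0.84), and Col5a1 by 1.10 (SE 0.14). By its brightest probe, not well above background with Venus, Pdgfra was at least 7.97-fold higher. Under normexp the log2 difference of that probe was 1.45, and another tested Pdgfra probe read 1.46. Both are smaller than that bound, which therefore holds only for the brightest probe without normexp. Adjusted p-values of the 5 higher genes by limma ran from 0.00141 for Col1a1 to 0.0141 for Loxl2. Without Venus replicate 1 Col5a1 was at 0.95, below 2-fold. Cd44, a hyaluronan receptor, fell by 1.13 (SE 0.12, adjusted p = 0.00832) by its brightest probe, whereas another of its 3 probes read 0.17. Vim and Fn1, encoding vimentin and fibronectin, differed by -0.09 (adjusted p = 0.622 by limma) and -0.04 (adjusted p = 0.800) by their brightest probes. The 4 tested Fn1 probes ranged from -0.52 to -0.04. The list median was 0.03.

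In the S100 family 11 of 16 genes on the array were tested. S100a8, a calprotectin subunit of myeloid cells, rose by 1.64 (SE 0.17, adjusted p = 0.00819 by limma). S100pbp, which encodes a binding partner and not an S100 protein, fell by 1.03 (SE 0.18, adjusted p = 0.0246) by its brightest probe, while its 3 tested probes ranged from -1.09 to 0.01, with an adjusted p of 0.113 without Venus replicate 1 and a difference of -0.79 without OASIS replicate 2. The list median was -0.04.

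**Figure D5:**
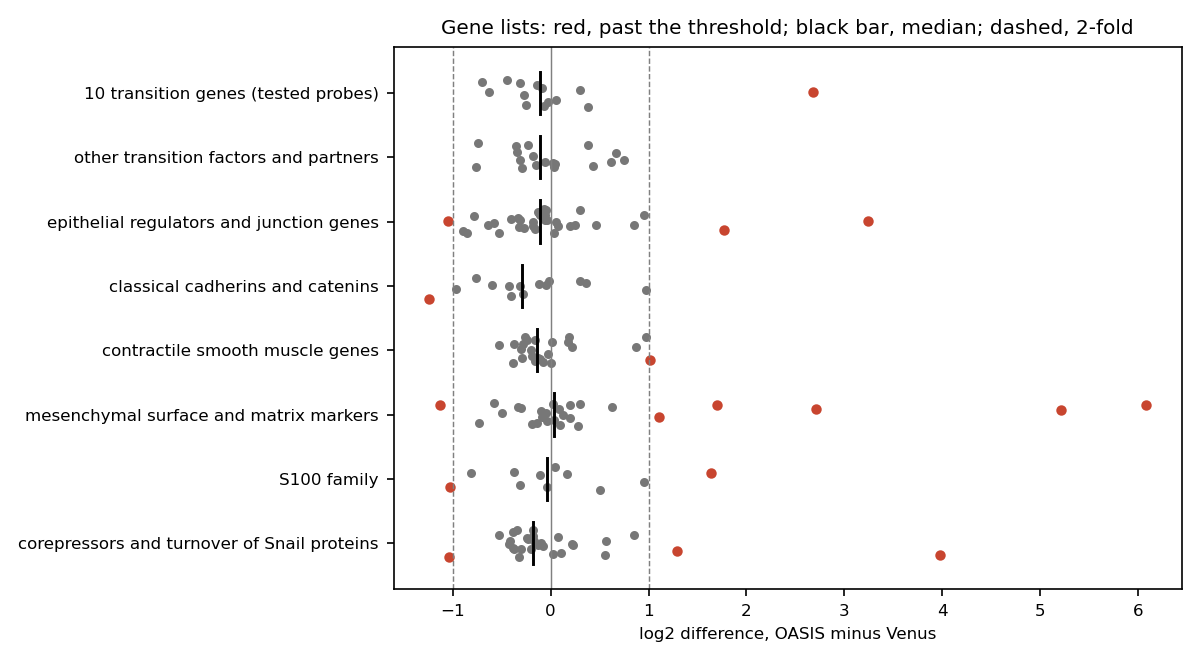
Log2 difference, OASIS minus Venus (horizontal axis), of the tested probes of the 10 genes (top row) and of the tested genes of 7 lists by their brightest probe; red points are past the threshold, black bars are medians and dashed lines mark 2-fold. Medians lie between -0.30 and 0.03, and the red points farthest to the right are Col1a1, Pdgfra and Lox; for Pdgfra, Ovol1 and Cdh9, which 1 group did not measure above background, the plotted value is the fitted one and the text gives a bound.

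Markers of podocytes and of other kidney cells were read on the same arrays, and in bulk RNA fewer cells of a type and less RNA per cell cannot be told apart. Of 20 podocyte genes 16 were tested. Ptpro and Tcf21 were well above background on no array and Nphs1, which encodes nephrin of the slit diaphragm, on at most 1. Wt1 was higher by 4.62 with 1 probe (2.68 under normexp) and read -0.16 with the other, Cd2ap was higher by 1.09, with other probes down to -0.37, and Plce1 fell by 1.26 by 1 of 3 tested probes, with another at 0.05. The adjusted p of Plce1 by limma, 0.0932, was between 0.155 and 0.275 without either Venus array or OASIS replicate 1, 0.116 with the authors' scaled values, 0.264 without the filter on dim probes and 0.329 by the methods' t-test. The summed intensity of the podocyte probes was 110800 to 120000 with Venus and 96540 to 106200 with OASIS.

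Among markers of other cells, Lrp2 rose by 1.62 among 8 tested tubular genes (other probes down to -0.16), Egfl7 by 1.22 among 4 tested endothelial genes (0.98 without OASIS replicate 1), and none of 6 tested leukocyte genes passed by limma, with 1 higher and 2 lower at an unadjusted p under 0.05 (0 and 1 by the methods' t-test). Of the 6 tested mesangial and fibroblast genes, Pdgfra was higher and Ren1, the renin gene, fell by 2.90. The tubular gene Cubn differed by -0.22, the endothelial gene Pecam1 by 0.26, and the leukocyte genes Ptprc and Csf1r by 0.07 and 0.74, with adjusted p-values of 0.240, 0.161, 0.796 and 0.072 by limma. The other tested probe read -0.34 for Ptprc and 0.02 for Csf1r. Epcam, Umod, Cdh5, Kdr, Lum, Thy1, Adgre1 and Tyrobp were well above background on no array. The summed intensity was 40100 to 52340 with Venus and 41590 to 59590 with OASIS for tubular probes, 1441 to 1540 and 2335 to 3007 for endothelial probes, 7139 to 8366 and 4107 to 5162 for mesangial and fibroblast probes, and 22380 to 22890 and 18070 to 18500 for leukocyte probes. With OASIS, the endothelial sum was higher and the podocyte, mesangial and fibroblast, and leukocyte sums were lower on both arrays. Such a sum is weighted to the brightest probes of its list, so it does not measure the share of a cell type. Of the 4 tested endothelial genes, 3 differed upwards and 1, Esam, downwards, by 0.59. The part of these sums in the difference of Snai1 was not tested.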

How the data were processed

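Total RNA of the podocyte line was measured on Agilent SurePrint G3 mouse arrays, 2 per group. The deposited scanner output gives an intensity per spot, background-corrected by the authors in Agilent Feature Extraction 12.1.0.3. A second file deposited by the authors gives this intensity multiplied by a factor for each array, a detection score per spot, gene symbols, bands and annotation terms. That file supplied symbols and bands. The aim, groups and threshold follow the study, whose methods name no test for the q-values.

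From the corrected intensities, without control and outlier spots, log2 values relative to each array's 75th percentile were taken and spots of a probe averaged. A probe was well above background when at least 0.5 of its spots were. limma 3.58.1 (lmFit, eBayes, R 4.3.3, with the package data.table, version 1.17.8) fitted the group difference, with no other covariate, and p-values were adjusted by Benjamini-Hochberg over all probes tested. The number of arrays limits the precision. A probe that neither array of a group had well above background gives a bound only: the mean of the brighter group over the mean of a floor, taken per array as the lowest signal well above background or the probe's own signal if higher.

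All probes of the 10 genes are named. From each list up to 4 genes past the threshold with the largest change by the brightest probe are named, with the 2 written first where fewer than 2 passed. Col5a1, Cd44, Vim, Fn1 and the genes short of the 2-fold limit were added after their values were seen. The members and lists were chosen with earlier results of these data known. Alternatives were normexp correction (offset 50), quantile or median scaling, the authors' scaled values, dim probes kept, detection required on all 4 arrays, outlier spots kept, an intensity trend, the methods' t-test, a limit of 0.05 on the adjusted p, a replicate block, the mean of a gene's probes, and each array left out. No genome of the array's build, promoter or protein sequence was used here, so motifs and coordinates are not analysed. Values of some marker genes are not reported here.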

Additional observations from a re-analysis of the deposited data

How the results depend on the processing

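Snai1 was past the threshold under all 15 alternatives, with log2 differences of 2.47 to 2.89 and adjusted p-values of at most 0.0994, the highest by the methods' t-test. The sign turned for the Zeb1 probe A_55_P2798179 under normexp (0.0075). It also turned with an array left out, where this Zeb1 probe ranged from -0.0996 to 0.0423 (positive without OASIS replicate 1), the Acta2 probe A_52_P210078 from -0.1767 to 0.2821 (negative without OASIS replicate 2 and, at -0.0691, without Venus replicate 1), the dim Cdh2 probe A_55_P2720238 from -0.9365 to 0.4298 (positive without Venus replicate 1), and S100a4 from -0.2272 to 0.0538 (positive without OASIS replicate 1). For these, the cause was not tested. Of the probes that met the adjusted p alone, Zeb2 A_51_P121206 did so under 12 of 15 alternatives, Snai2 under 10, Zeb2 A_52_P596008 under 9, Acta2 A_51_P450957 under 8 and Twist2 under 7. The count of member probes past the threshold downwards, 0, was 1 without a filter on dim probes and 0 to 1 when an array was left out, the probe being the dim Acta2 probe A_52_P644232. The count higher by the adjusted p alone, 2, was 1 after scaling to the median, with the authors' scaled values, without the filter on dim probes and at an adjusted p under 0.05, and 1 to 2 with an array left out. The count lower, 4, was 2 without the filter, 1 by the methods' t-test, 1 at an adjusted p under 0.05, and 0 to 4 with an array left out, 0 being without Venus replicate 1.

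By the methods' t-test, 6 member probes had an unadjusted p under 0.05 and 1, Snai1, also met the fold limit. The share of all probes at that p by this test is not given here, so the count of 6 is a description only. After Benjamini-Hochberg, Snai1 and Twist2 were higher and 1 Acta2 probe, A_52_P420504, lower at an adjusted p under 0.1, and of these Snai1 alone met the fold limit. Normexp gave 972 probes higher and 250 lower over the array, against 1861 and 780, and the methods' t-test 551 and 175. Samples of the groups share replicate numbers, but nothing says that a number marks a shared culture. Over the tested probes, the difference between replicates 1 and 2 of Venus correlated at 0.259 with that of OASIS. With the replicate number as a block, 1 member probe was past the threshold higher and 0 lower, and by the adjusted p alone 3 were higher and 4 lower.

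Among the list genes, the counts below moved by more than 1.5 times. Normexp gave 0 lower in the S100 family, the cadherins, the corepressor list and the epithelial list, 0 higher in the epithelial list and 1 higher in the corepressor list. The methods' t-test gave 0 higher and 0 lower in the S100 family and the epithelial list, 0 lower in the cadherins, the corepressor list and the mesenchymal markers, 1 higher in the corepressor list, and 3 of the mesenchymal markers higher in place of 5. Without the filter on dim probes, 1 cadherin was higher and 0 lower, 0 genes of the corepressor and epithelial lists were lower and 2 mesenchymal markers were lower. With detection on all 4 arrays, 0 cadherins were lower and 1 epithelial gene was higher, and at an adjusted p under 0.05, 0 cadherins were lower. Quantile normalization and scaling to the median each gave 0 contractile genes higher. The mean of a gene's probes gave 0 lower in the S100 family and the mesenchymal markers, 0 contractile genes higher, and 2 lower in the corepressor and epithelial lists. With an array left out, the counts higher ranged from 1 to 2 in the S100 family, 0 to 1 in the cadherins and 0 to 2 in the contractile genes, and the counts lower ranged from 0 to 1 in the S100 family, the corepressor list and the other transition factors, 0 to 2 in the cadherins and 0 to 3 in the epithelial list. Of 16 list genes past the threshold, 10 kept the call whichever array was left out and 4 under every alternative in which they were tested.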

Other observations

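The annotation deposited with the array marks genes of epithelial to mesenchymal transition and of its positive or negative regulation, a grouping looked at after the values of the 10 genes were known. Of 80 genes tested that carry any of the 3 terms, 13 (16.2%) were higher and 0 lower by limma with Benjamini-Hochberg adjustment, beside 6.21% and 1.85% of all genes tested. At an unadjusted p under 0.05 and any fold, 30 were higher and 13 lower by limma, beside 20% and 20.9% of all genes, and no set test was made. Past the threshold, 3 of 32 tested genes of the transition itself were higher (9.38%). For its positive regulation it was 8 of 35 (22.9%), and for its negative regulation 4 of 22 (18.2%), with some genes under several terms. Sfrp1, Foxa2, Efna1 and Trim62 were those of negative regulation, so the pooled count of 13 mixes genes annotated to opposite roles. By the methods' t-test 5 of the 13 passed (Rgcc, Col1a1, Snai1, Efna1 and Tgfb3) and under normexp 10 passed, all but Sfrp1, Foxa2 and Trim62. Without the 10 genes above, 12 of 77 (15.6%) were higher. Those not listed above include Bambi, a decoy receptor of the TGF-β family (3.92, SE 0.27, and 2.06 under normexp), Bmp7, a bone morphogenetic protein of kidney development (3.65, SE 0.32, and 1.97 under normexp), the ephrin ligand Efna1 (2.45, SE 0.15), Tgfb3 (2.16, SE 0.15) and Wnt11 (2.05, SE 0.21). Wwtr1, which encodes the Hippo pathway coactivator TAZ, was higher by 1.03 (SE 0.16), and by 0.89 without OASIS replicate 2 and 0.92 without Venus replicate 1, below 2-fold. For 3 of the genes only a bound can be given, since they were not well above background with Venus and entered the test through the OASIS arrays alone. Rgcc, a regulator of the cell cycle, was at least 312-fold higher, Sfrp1, a secreted Wnt antagonist, at least 2.36-fold and Foxa2, a forkhead factor of endoderm, at least 1.55-fold. Under normexp their log2 differences were 5.53, 0.49 and 0.48, each smaller than the bound.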
